A study of Mus musculus with 6 samples.

Results

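The wildtype baseline of fetal Eµ-Myc pre-B cells was read from the 3 of 6 arrays labelled Smchd1 wildtype, and no level of the remaining 3 arrays is given here. The deposited values had been normalized over all 6 arrays together, so the remaining arrays bear on the scale: with the wildtype arrays normalized alone, levels shifted by a median of 0.13 log2 units. A gene was taken as detected when at least 1 of its probes had a detection p under 0.05 on all 3 arrays, was represented by its brightest such probe, and was ranked by its mean normalized log2 intensity. Of 30774 gene entries on the array, read by 45281 probes, 9958 were detected in this way, which is 32.4%. A further 3760 entries were detected on 1 or 2 arrays, and 17056, or 55.4%, were not detected on any array. A gene entry is the target name of the array's design, and several entries can stand for the same gene: merged by RefSeq symbol, 9548 genes were detected.

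The arrays were Illumina MouseWG-6 v2 BeadChips, on which beads carrying an oligonucleotide probe bind labelled cRNA. The samples were pre-B cells sorted from C57BL/6 embryos at E17.5. They were wildtype for Smchd1, which encodes a chromatin protein needed for X inactivation, and carried the Eµ-Myc transgene, in which Myc is placed under the immunoglobulin heavy chain enhancer and so is active from early stages of the B lineage. The arrays that were set aside came from embryos that carried the same transgene and were additionally homozygous for a Smchd1 gene trap, so no array of the series lacks the transgene and nothing here separates its effect from the normal state of fetal pre-B cells. The labels used here give neither the organ nor the sorting gate, nor whether each array holds a separate embryo or a pool, so the spread between arrays may be technical. The analysis describes these 3 samples and tests no contrast.

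Pre-B cells are the precursors of B lymphocytes that have joined an immunoglobulin heavy chain gene and not yet a light chain gene. They display the heavy chain with a surrogate light chain, made of the Vpreb and Igll1 (λ5) proteins, and the signalling pair Cd79a and Cd79b, together called the pre-B cell receptor or pre-BCR, which drives a burst of division before the light chain genes are rearranged. Myc raises ribosome production, translation, nucleotide synthesis and cell cycle entry, and Eµ-Myc mice accumulate pre-B cells before lymphomas arise.

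The promoters of 5 genes that the results turn on are shown here because they differ widely in their number of CG dinucleotides: those of the neighbouring surrogate light chain genes Igll1 and Vpreb1, of the surrogate light chain-like gene Vpreb3, of Rps12 as the named gene with the highest rank, and of Mpo as the gene with the widest spread between arrays. Each sequence runs 5′ to 3′ on the gene's strand over 300 bases, from 250 before the annotated start to 50 after it, from RefSeq on GRCm38.p6, and capitals mark CG dinucleotides. The Igll1 promoter lies at chr16:16863936-16864235 and the Vpreb1 promoter at chr16:16869206-16869505, both on the minus strand and 5270 bases apart. The Vpreb3 promoter lies at chr10:75948050-75948349 on the plus strand, the Rps12 promoter at chr10:23787160-23787459 on the minus strand and the Mpo promoter at chr11:87793534-87793833 on the plus strand. The Vpreb3 sequence lies inside the annotated span of the gene, chr10:75943024-75949657, and so not at its outermost start. Which start these cells use was not tested.
Igll1: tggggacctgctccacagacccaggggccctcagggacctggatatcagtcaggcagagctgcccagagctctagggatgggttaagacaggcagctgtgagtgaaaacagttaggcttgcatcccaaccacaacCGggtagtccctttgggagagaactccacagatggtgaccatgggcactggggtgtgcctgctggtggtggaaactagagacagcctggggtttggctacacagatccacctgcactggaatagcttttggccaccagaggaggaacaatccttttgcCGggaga
Vpreb1: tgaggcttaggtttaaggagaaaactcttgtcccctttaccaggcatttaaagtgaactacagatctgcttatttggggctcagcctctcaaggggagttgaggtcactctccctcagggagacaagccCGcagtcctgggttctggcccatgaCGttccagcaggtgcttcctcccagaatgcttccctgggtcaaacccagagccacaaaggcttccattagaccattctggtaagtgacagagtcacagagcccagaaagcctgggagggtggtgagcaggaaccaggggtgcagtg
Vpreb3: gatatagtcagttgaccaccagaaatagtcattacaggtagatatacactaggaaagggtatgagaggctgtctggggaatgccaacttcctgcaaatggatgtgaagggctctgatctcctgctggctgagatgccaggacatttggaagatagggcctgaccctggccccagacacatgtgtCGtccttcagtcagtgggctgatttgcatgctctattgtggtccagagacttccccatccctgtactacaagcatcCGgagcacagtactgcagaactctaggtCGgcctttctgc
Rps12: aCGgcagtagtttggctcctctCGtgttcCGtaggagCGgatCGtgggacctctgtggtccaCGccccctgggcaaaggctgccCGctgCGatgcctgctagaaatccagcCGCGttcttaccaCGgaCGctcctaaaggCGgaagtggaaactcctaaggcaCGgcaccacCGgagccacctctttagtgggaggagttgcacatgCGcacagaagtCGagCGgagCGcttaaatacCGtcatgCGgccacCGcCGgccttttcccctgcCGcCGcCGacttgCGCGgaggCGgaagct
Mpo: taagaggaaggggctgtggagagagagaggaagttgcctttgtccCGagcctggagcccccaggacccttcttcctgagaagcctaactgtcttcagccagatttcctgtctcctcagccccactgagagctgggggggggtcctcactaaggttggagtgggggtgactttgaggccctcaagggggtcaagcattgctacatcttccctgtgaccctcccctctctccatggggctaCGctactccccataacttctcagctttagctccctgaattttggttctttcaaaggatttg
The Rps12 promoter holds 29 CG dinucleotides, the Vpreb3 promoter 3, and the promoters of Igll1, Vpreb1 and Mpo 2 each. The Vpreb3 promoter also holds the octamer ATGCAAAT, the motif of the Oct factors, in its reverse complement, and none of the 5 holds the E-box CACGTG, the TATA motif TATAAA or the ETS motif CCGGAAG.

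The 3 arrays were broadly alike in quality, but replicate 1 was the dimmest in its bright probes before normalization. Probes with a deposited intensity above 20000 numbered 119, 162 and 131 on replicates 1, 2 and 3. Detected probes numbered 15551, 16447 and 16337 on replicates 1, 2 and 3, the mean intensity of the 936 negative control probes was 147.6, 165.9 and 154.0, and a probe was read by a median of 43 beads on each. Detection began at a normalized log2 intensity of 5.16 on replicate 1 and 5.08 on the others. Over the 9958 ranked genes, replicates 2 and 3 correlated at r = 0.9953 and replicate 1 correlated with either at 0.9922, as a description across genes that share probes and normalization. By this measure and by the number of genes that differ by more than 1 log2 unit, 44 between replicates 1 and 2, 37 between 1 and 3 and 6 between 2 and 3, replicate 1 stood somewhat apart, and the genes concerned are described below.

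Ranked by level, the detected genes were divided into the top 10%, called abundant, the next 15%, called upper, the middle 50%, called mid-level, and the lowest 25%, called faint. The 996 abundant genes, which are 3.24% of all entries, had mean levels of 11.33 to 14.91 with a median of 12.27. The 1494 upper genes lay between 9.79 and 11.33, the 4978 mid-level genes between 6.54 and 9.79 with a median of 8.10, and the 2490 faint genes between 5.15 and 6.54. In deposited linear intensity these classes had medians of 5624, 1661, 443 and 202, against 156 for genes detected on no array. Probes differ in how well they bind, so these are classes of probe brightness, and the rank of a gene is not its place in a count of RNA molecules.

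**Figure D1:**
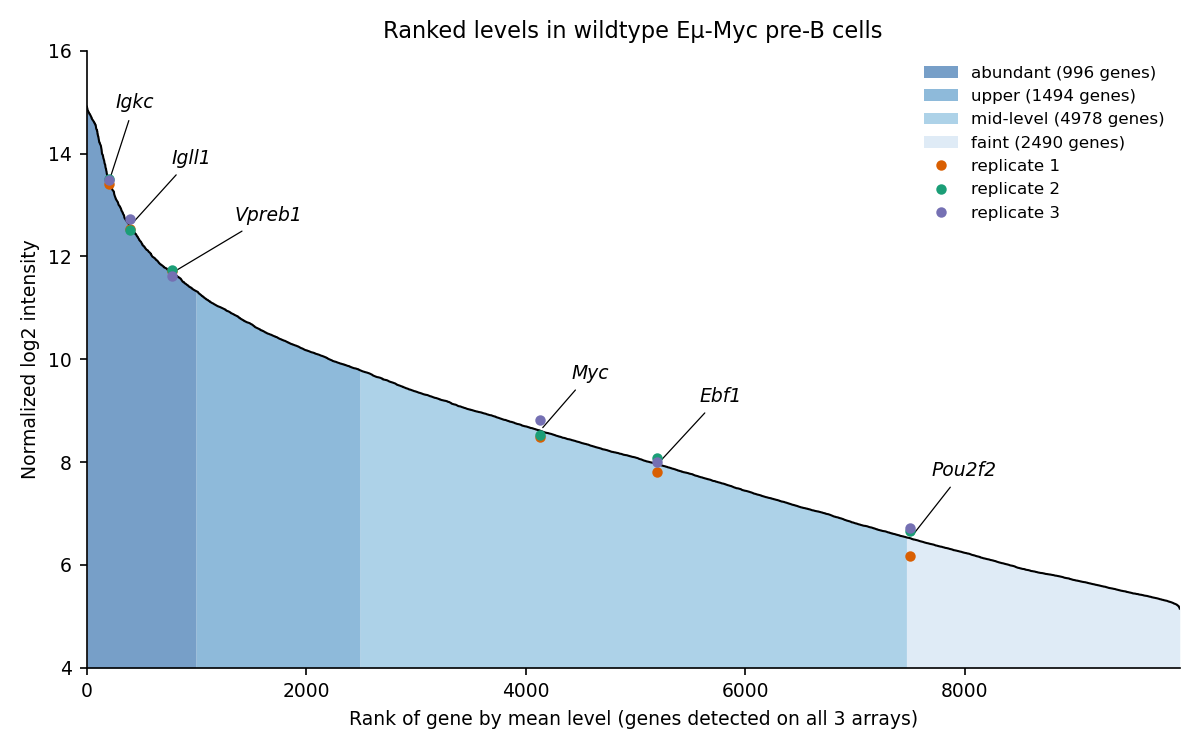
Mean normalized log2 intensity (vertical axis) of the 9958 genes detected on all 3 wildtype arrays against their rank (horizontal axis), with shading by class and coloured points for the 3 replicates of 6 B lineage genes. Igkc, Igll1 and Vpreb1 lie in the abundant class, Myc and Ebf1 in the mid-level class, and Pou2f2 at the top of the faint class.

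The borders are arithmetic and not gaps in the data. Near the lower border of the abundant class stood Rrm1, a subunit of ribonucleotide reductase, at 11.49, 11.20 and 11.31 on replicates 1 to 3. Just outside that class stood Dnmt1, the maintenance DNA methyltransferase, at 11.25, 11.43 and 11.30. The means of Rrm1 and Dnmt1 differed by less than their spread over the arrays. The same holds for Sgpp1 and Dusp2 near the lower border of the upper class, at 9.79, 9.73 and 9.85 and at 9.88, 9.85 and 9.63.

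The genes of the pre-BCR were among the brightest on all 3 arrays. Igll1 (listed as IGL-5), the λ5 chain, measured 12.53, 12.52 and 12.73, and Vpreb1, its partner in the surrogate light chain, 11.71, 11.73 and 11.61, which placed them at ranks 393 and 778 of 9958. Ighm, the µ heavy chain constant region, measured 13.41, 13.31 and 13.38, and Cd79b, the β signalling chain, 13.23, 13.08 and 12.99. No array was the highest throughout: replicate 3 was highest for Igll1 and lowest for Vpreb1 and Cd79b. The other probe of Ighm gave 13.33, 13.23 and 13.22 and that of Cd79b 12.57, 12.49 and 12.45.

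Igkc, the constant region of the κ light chain, was as steady, at 13.40, 13.51 and 13.48. Vpreb3, which binds immunoglobulin chains inside the cell and is named for its likeness to Vpreb1, measured 12.17, 12.16 and 12.03. Of the 9 members of the list of pre-BCR and immunoglobulin chains on the array, 6 were detected and all 6 of these were abundant. Over all entries 32.4% were detected and 3.24% were abundant. The standard deviations of the 6 genes over the arrays had a median of 0.07. The members detected on no array were Vpreb2, Ighg1 and Jchain. Ighg1 is the constant region of a switched isotype and Jchain joins secreted IgM, both of later B cell stages. Vpreb2 is a near-identical copy of Vpreb1, so which of the pair the Vpreb1 probe reads is uncertain. Cd79a, a marker of these cells, was not analysed here.

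Variable segments of the immunoglobulin loci, a group chosen after values had been seen, were counted by chain. Of 59 entries for heavy chain variable segments 2 were detected on all 3 arrays and 50, or 84.7%, on none. Of 25 entries for κ variable segments 6 were detected on all 3 arrays and 13, or 52%, on none, a share near the 55.4% of all entries. The brightest of the κ group, Igkv19-93, measured 6.73, 6.58 and 6.53. Replicate 1 was thus the highest for this segment. It was the highest for 4 of the 6 detected κ segments, beside 37.1% of all ranked genes.

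Myc itself was a mid-level gene by its brightest probe, at 8.49, 8.53 and 8.82 (8.61 ± 0.18, SD, n = 3), rank 4130. The other Myc probe was detected on no array, at 4.42, 4.34 and 4.98. Whether either probe reads the transcript of the transgene as well as that of the endogenous gene was not tested, because probe sequences were not used here. Replicate 3 was the highest on both probes.

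Among the 12 members of the Myc network, 8, or 66.7%, were detected, beside 32.4% of all entries. Mxd4, a member of the Mxd family that competes with Myc for the partner Max, measured 11.52, 11.50 and 11.35, and Zbtb17 (Miz1), which Myc binds at genes that it represses, 10.40, 10.40 and 10.26. Max, the partner Myc needs to bind DNA, gave 7.15, 7.39 and 7.71, and Mxi1 7.07, 7.27 and 6.97. Mga and Mnt passed detection on some arrays only, and the paralogs Mycl and Mycn on none. The network held 1 abundant gene of 12, which is 8.33%, against 3.24% of all entries.

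Genes known as Myc targets in ribosome biogenesis, translation and metabolism stood at the other end of the ranking. Of 35 on the array, 32, or 91.4%, were detected and 16, or 45.7%, were abundant, beside 32.4% and 3.24% of all entries. Npm1, a nucleolar chaperone of ribosome assembly, measured 14.29, 14.58 and 14.42, and Nme1, a nucleoside diphosphate kinase, 14.07, 14.17 and 14.14. Ldha, lactate dehydrogenase A, measured 13.60, 13.90 and 13.94, Eif4a1, an RNA helicase of translation initiation, 13.52, 13.76 and 13.70, and Gnl3 (nucleostemin) 12.95, 13.20 and 13.10. Replicate 1 was the lowest of the arrays for these 5 genes, by at most 0.34 log2 units, and for 16 of the 32 detected members, while it was the lowest for 36.2% of all ranked genes. Dkc1, Nop16 and Wdr12, which also act in ribosome biogenesis, were detected on no array.

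Ribosomal protein genes filled much of the top of the ranking. Among the 25 highest genes, 12 carried a nuclear gene symbol, and the other 13 were clone or locus identifiers, apart from the mitochondrial entry for cytochrome c oxidase subunit III. The nuclear genes were 7 ribosomal protein genes, among them Rps12, Rps9, Rpl9, Rps2 and Rpl10a, the histone genes H2ac13 and H2ac7, the peptidyl-prolyl isomerase gene Ppia, the ubiquitin gene Ubb and the elongation factor gene Eef1a1. Rps12 measured 14.91, 14.85 and 14.93, Ppia 14.93, 14.92 and 14.81, and H2ac13 14.82, 14.76 and 14.83.

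All of these signals sat close to the ceiling of the arrays, where the brightest probe read 30249 to 34015 intensity units, so their order says little. Ribosomal protein genes have many processed pseudogenes and the H2A genes many near-identical copies, so a probe can read several of them. Of 68 ribosomal protein entries 61 were detected, with a median level of 14.37, and 53, or 77.9%, were abundant, beside 3.24% of all entries. Their median levels on replicates 1, 2 and 3 were 14.33, 14.43 and 14.37, near the ceiling, where agreement between arrays shows little.

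Other housekeeping machines were abundant to a lesser degree, though above the 3.24% of all entries. Of 74 nuclear genes of oxidative phosphorylation 41 were abundant, led by the ATP synthase β subunit gene Atp5b at 14.67, 14.83 and 14.71. Of 39 proteasome subunit genes 19 were abundant, led by Psma2 at 13.61, 13.65 and 13.57, and of 64 splicing factor genes 27. The 70 mitochondrial ribosomal protein genes were placed lower, with 18 abundant and 33 upper. Of 18 glycolytic genes 7 were abundant, among them Tpi1, triosephosphate isomerase, at 13.56, 13.59 and 13.51, Gapdh at 13.16, 13.14 and 13.19, and Eno1, enolase, at 12.90, 12.77 and 12.98. Hk3, Aldoc and Eno2, forms known from myeloid cells and from the nervous system, were detected on no array.

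The genes of a dividing cell were nearly all present. Of 34 cell cycle genes 32, or 94.1%, were detected, 11 as abundant and 12 as upper. Over all entries 32.4% were detected, 3.24% as abundant and 4.85% as upper. The replicative helicase genes Mcm5, Mcm4 and Mcm6 measured 12.86, 13.00 and 12.88, 12.66, 12.87 and 12.91, and 12.37, 12.53 and 12.26. Cdc20, an activator of the anaphase-promoting complex, measured 12.25, 12.24 and 12.17, and Plk1, a mitotic kinase, 11.94, 11.91 and 11.79. Bub1, a checkpoint kinase, and Ccnb2, cyclin B2, were detected on no array, although Bub1b and Ccnb1 were. Histone cluster genes, which are expressed in S phase, were detected in 50 of 59 entries, or 84.7%, 14 of them abundant.

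Among the G1 regulators, Cdk4 measured 11.62, 11.52 and 11.75 and the D cyclin genes Ccnd3 and Ccnd1 10.99, 11.03 and 11.01 and 10.74, 10.70 and 10.71. Cdkn1c, the imprinted inhibitor p57, gave 10.18, 9.96 and 9.82, and Cdkn2d, the inhibitor p19 of the Ink4 group, 8.32, 8.08 and 8.10. For both inhibitors replicate 1 was the highest. Cdkn2a, which encodes the Arf protein that activates p53, passed detection on some arrays only, at 4.56, 4.81 and 5.34, and so did Cdkn1a (p21). Cdkn2b was detected on no array.

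The p53 pathway was detected in part. Trp53inp1, a p53-induced gene, measured 10.41, 10.42 and 10.52, Bax, a pore-forming killer protein, 10.45, 10.25 and 10.38, Trp53 itself 10.26, 10.06 and 10.22, and its ubiquitin ligase gene Mdm2 9.92, 9.85 and 9.86. Sesn2, Btg2, Phlda3, Perp and Eda2r, all known p53 targets, were detected on no array. In all, 9 of 18 members, or 50%, were detected and none was abundant, beside 32.4% and 3.24% of all entries. Of named genes 39% were detected. In the Bcl2 family, which sets the threshold for apoptosis, Mcl1 was the brightest survival gene at 11.23, 11.31 and 11.15. Bid and Bcl2l11 (Bim), both pro-apoptotic, followed Bax at 8.91, 9.16 and 9.12 and at 8.80, 8.82 and 9.12. Bcl2 passed detection on some arrays only, at 5.27, 4.40 and 4.46, and Bik, Bmf and Hrk on none.

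B cell identity genes were spread over all classes. Of 19 on the array 17, or 89.5%, were detected, beside 32.4% of all entries, with 4 abundant, 2 upper, 8 mid-level and 3 faint. Pou2af1, the coactivator OBF-1 of the Oct factors, measured 12.80, 12.88 and 12.95, and Fcrla, an Fc receptor-like protein of B cells, 12, 12.18 and 12.30. Btk, the kinase that passes on receptor signals, measured 11.31, 11.45 and 11.44, and the surface protein gene Cd72 10.86, 11.06 and 11.14. For these 4 genes replicate 1 was the lowest.

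Genes outside the highest 5 of the list, chosen after their values were seen, show how far the members ranged. Ebf1, a factor that specifies the B lineage, measured 7.80, 8.08 and 8.01, and Ptprc (CD45, whose B220 form marks B cells) 5.30, 5.86 and 5.49. Pax5, the factor that keeps B cells committed, was detected on no array by its only probe, at 4.70, 5.07 and 4.71, and neither was Cd38. A probe that is not detected bounds the signal of that probe and does not show that a gene is silent.

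**Figure D2:**
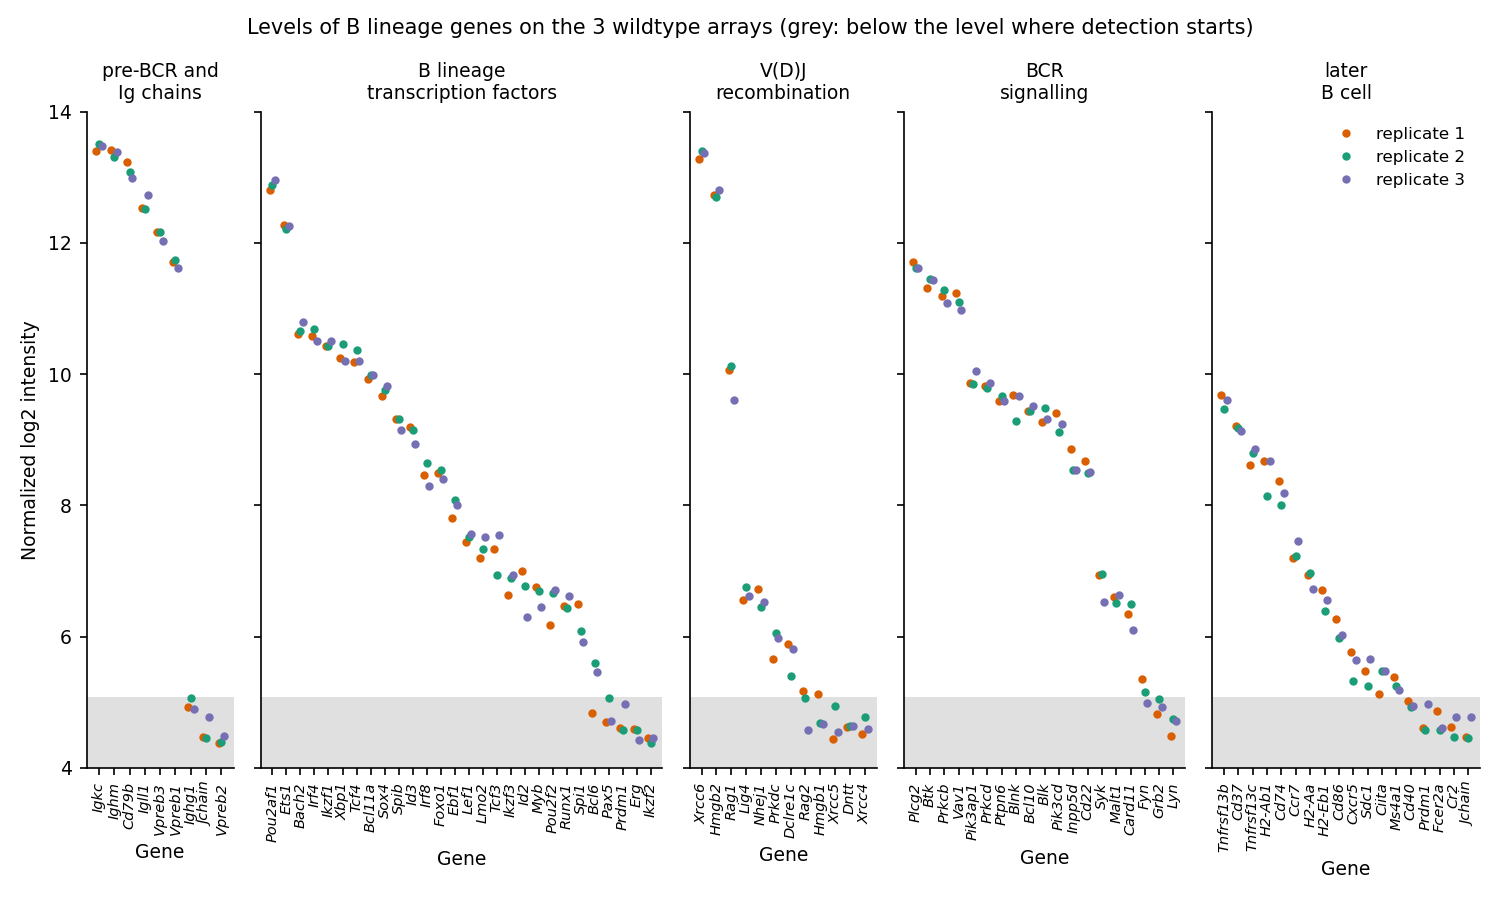
Normalized log2 intensity (vertical axis) of members of 5 B lineage lists (horizontal axis, each list ordered by mean level) on the 3 wildtype arrays, as coloured points, with grey below 5.08, the lowest level at which detection starts on an array. The 6 detected pre-BCR and immunoglobulin genes lie at 11.68 to 13.46 on average, and no later B cell gene reaches the upper class.

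Of 28 B lineage transcription factors 23, or 82.1%, were detected, beside 32.4% of all entries. Beside Pou2af1, the brightest were Ets1, at 12.27, 12.21 and 12.26, Bach2, a repressor of plasma cell fate, at 10.61, 10.66 and 10.80, and Irf4, which promotes light chain rearrangement, at 10.58, 10.68 and 10.51. Ikzf1 (Ikaros) measured 10.43, 10.42 and 10.50. The largest class was mid-level, with 12 factors. Pax5, Prdm1, Erg and Ikzf2 were detected on no array, and Bcl6 on some arrays only, at 4.83, 5.60 and 5.46. Prdm1 (Blimp-1) drives the plasma cell fate, and Ikzf2 (Helios) is best known from T cells and stem cells.

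In the machinery of V(D)J recombination, Rag1, the catalytic subunit of the recombinase, was an upper gene at 10.06, 10.12 and 9.60, with replicate 3 the lowest. Xrcc6 (Ku70), which binds the broken ends, measured 13.28, 13.40 and 13.37, and Hmgb2, a DNA-bending cofactor, 12.73, 12.70 and 12.81. The end-joining genes Lig4 and Nhej1 were mid-level, at 6.55, 6.75 and 6.62 and at 6.72, 6.45 and 6.53. Rag2 straddled the level of detection, at 5.17, 5.06 and 4.58. Dntt, which encodes the terminal transferase that adds bases at the joints and is known to be low in fetal life, was detected on no array by its only probe, at 4.62, 4.64 and 4.63, and neither were Hmgb1, Xrcc5 and Xrcc4, each by a single probe.

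Cytokine receptor and IL-7 pathway genes were modest. Il7r, the receptor chain that binds the main growth factor of mouse B precursors, measured 9.66, 10.03 and 9.78, and Pim3, a survival kinase, 10.35, 10.48 and 10.46. Socs2, an inhibitor induced by cytokines, gave 8.60, 8.70 and 8.68, Stat5a 7.59, 7.42 and 7.70, and the stem cell factor receptor gene Kit 6.91, 7.09 and 7.14. None of 18 members was abundant, beside 3.24% of all entries, a share that would give few or none. Csf2rb, Pim2, Crlf2, Socs1 and Stat5b were detected on no array.

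Genes that signal downstream of the receptor reached further up. Of 20 members 17, or 85%, were detected, 2 as abundant and 5 as upper. Over all entries 32.4% were detected, 3.24% as abundant and 4.85% as upper. Plcg2, the phospholipase of the pathway, measured 11.70, 11.61 and 11.62, Prkcb, protein kinase C β, 11.19, 11.28 and 11.08, Vav1, an exchange factor, 11.23, 11.10 and 10.97, and Pik3ap1 (BCAP), an adaptor for phosphoinositide 3-kinase, 9.87, 9.85 and 10.04. The kinase gene Lyn and the adaptor gene Grb2 were detected on no array, each by its only probe.

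Genes of later B cell stages did not reach the upper classes. Of 19 on the array 12, or 63.2%, were detected, beside 32.4% of all entries, and none was above the mid-level class. Of all entries 3.24% were abundant and 4.85% upper, so a list of 19 with none says little. Tnfrsf13b (TACI) and Tnfrsf13c (BAFF receptor), which bind survival factors of mature B cells, measured 9.68, 9.46 and 9.60 and 8.62, 8.79 and 8.85, and the tetraspanin gene Cd37 9.21, 9.17 and 9.13. H2-Ab1 and Cd74, of antigen presentation by MHC class II, gave 8.67, 8.14 and 8.68 and 8.37, 8.01 and 8.19, with replicate 2 the lowest for both. Cd40, Prdm1, Fcer2a, Cr2 and Jchain were among the members detected on no array.

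Among homing and adhesion genes the brightest were Cd44, at 10.62, 10.64 and 10.51, Selplg, the ligand of P-selectin, at 9.84, 9.81 and 9.67, and Cxcr4, the receptor for the marrow chemokine Cxcl12, at 9.49, 9.72 and 9.75. Pecam1 gave 7.58, 7.40 and 7.60. None of the 16 members was abundant, beside 3.24% of all entries, a share that would give few or none. Ccr9 and S1pr1, receptors for thymic homing and for exit into the blood, were detected on no array.

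Several regulators known for their fetal or oncofetal expression were bright. Hmga1, a chromatin protein, measured 13.21, 13.25 and 13.40, and the RNA-binding protein gene Igf2bp3 11.38, 11.41 and 11.46. Arid3a, a factor of fetal B lymphopoiesis, gave 11.10, 10.97 and 11.17, and the imprinted RNA gene H19 10, 10.42 and 10.44. Of 15 members 11, or 73.3%, were detected, beside 32.4% of all entries. Lin28b, the regulator of let-7 microRNAs that marks fetal lymphopoiesis, was mid-level at 8.59, 8.48 and 8.35, a gene outside the highest 5 that was chosen after its values were seen. Hmga2 and Plagl1 were detected on no array. For H19 replicate 1 was the lowest, as it was for Igf2, an imprinted growth factor gene, at 8.60, 9.36 and 8.93.

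Chromatin regulators were detected in 18 of 22 cases, or 81.8%, beside 32.4% of all entries. Uhrf1, which guides Dnmt1 to newly made DNA, measured 13.45, 13.52 and 13.49, Trim28 (KAP1), a corepressor of zinc finger proteins, 12.43, 12.50 and 12.38, and the Polycomb gene Suz12 12.12, 12.08 and 12.25. Cbx3, an HP1 protein, gave 11.87, 11.92 and 12. Smchd1, the gene whose wildtype state defines these samples, was mid-level by the brightest of its 5 probes, at 9.50, 9.65 and 9.67, and was named after its values were seen. Dnmt3a, Suv39h2 and Hells were detected on no array.

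Immediate early genes reached no higher than the mid-level class. Of 16 members 5, or 31.2%, were detected on all 3 arrays, a share close to the 32.4% of all entries, and 6 on some arrays only. Zfp36 measured 8.81, 8.77 and 8.68, and Dusp1, a phosphatase gene induced by stress, 7.33, 7.57 and 7.61. Junb gave 7.43, 7.29 and 7.73 and Egr1 6.55, 6.28 and 6.42. Fos, Atf3, Ier2, Hspa1a and Hspa1b were detected on no array. In the list of MHC class I and interferon genes, B2m, the light chain of MHC class I, measured 12.36, 12.47 and 12.45 and Psmb8, an immunoproteasome subunit gene, 11.61, 11.27 and 11.34, while the interferon-induced genes Irf7, Usp18, Ifit1 and Oas1a were detected on no array.

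**Figure D3:**
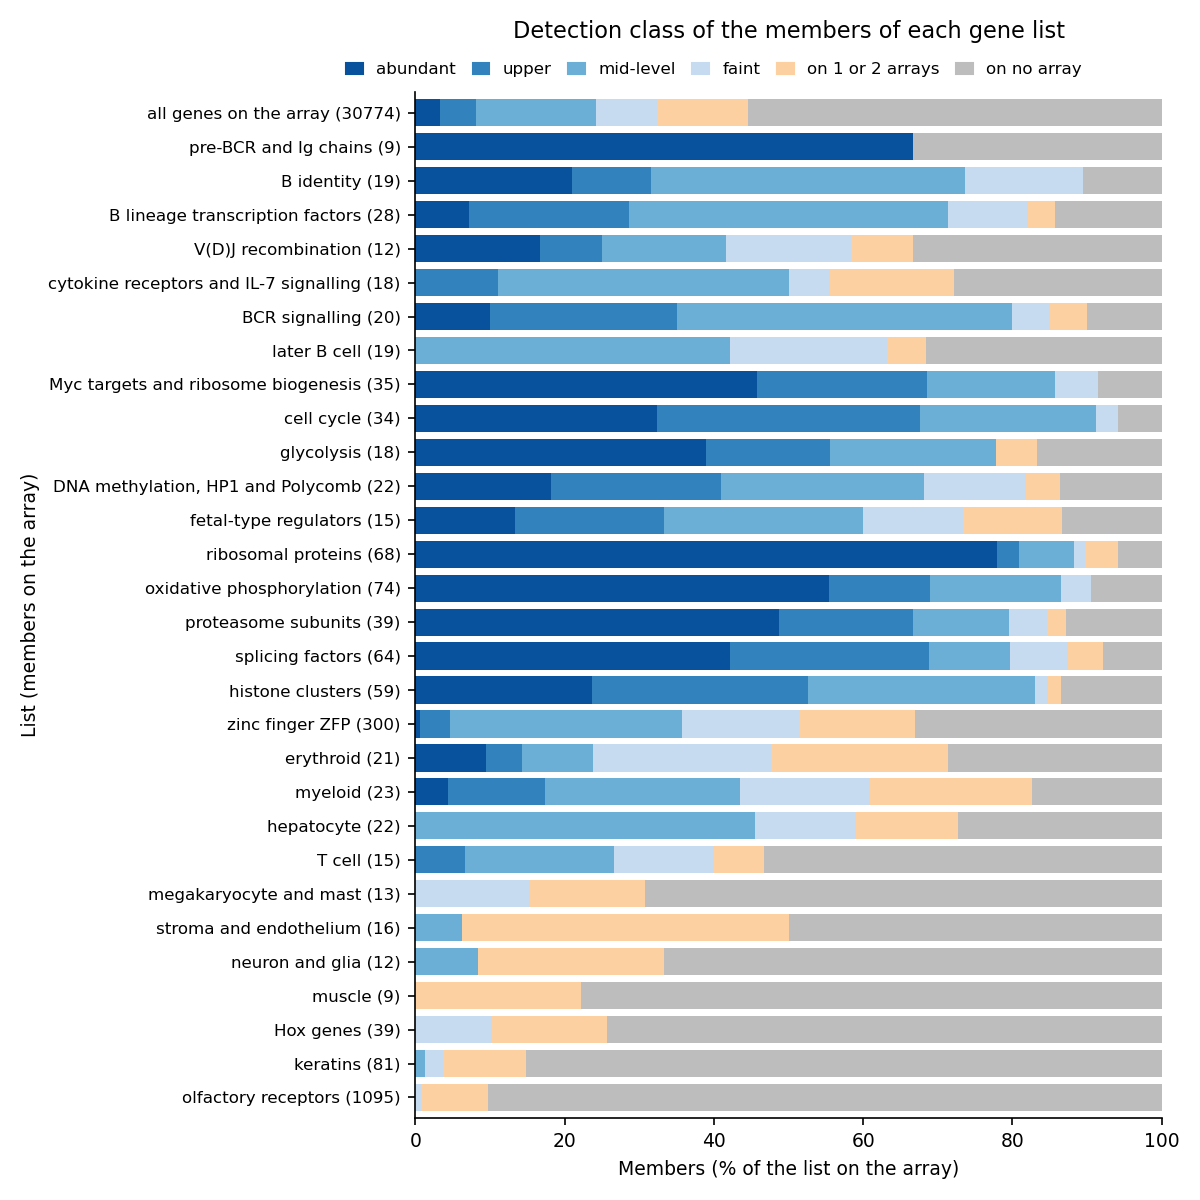
Share of the members on the array in each detection class (horizontal axis, % of the list) for all 30774 entries and for 29 gene lists (vertical axis, number of members in brackets), with bars coloured from abundant to detected on no array. Ribosomal proteins are 77.9% abundant and 90.3% of olfactory receptor entries were detected on no array.

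The absent class held the large families that serve other tissues. Of 1095 olfactory receptor entries 989, or 90.3%, were detected on no array, beside 55.4% of all entries, and 8 were detected on all 3, all of them faint, at mean levels of 5.19 to 6.08. Of 151 vomeronasal receptor entries 140 were detected on no array, as were all but 2 of 35 taste receptors, 69 of 81 keratins and keratin-associated proteins, 45 of 48 defensins, 64 of 82 neurotransmitter receptors and 44 of 54 clustered protocadherins. At a detection threshold of 0.01 the count of olfactory receptors on all 3 arrays was 3. Of the keratin group only Krt10 was above the faint class, at 8.95, 8.92 and 8.93. Of the 39 Hox genes none was above the faint class and 29 were detected on no array.

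Zinc finger genes of the Zfp series, which encode mainly repressors bound to DNA, lay between these extremes. Of 300 entries 154, or 51.3%, were detected, beside 32.4% of all entries, 93 of them mid-level and 2 abundant. The 17056 absent entries were less often named, with 62.7% matched to a RefSeq gene, than the mid-level genes, with 88.6%. They were also less often read by several probes. Of entries with 1 probe 24.7% were detected, of those with 2 probes 45% and of those with 3 or more 59.5%, so detection went with the number of probes. Of the 4580 detected genes with several probes, 2157, or 47.1%, had at least 1 probe that was detected on no array.

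Promoters of the classes differed in composition. Among genes with a single promoter in the RefSeq table, the 300-base promoters of the 535 abundant genes held a median of 22 CG dinucleotides, those of 886 upper genes 23, of 2728 mid-level genes 22 and of 1075 faint genes 20, against 6 for the 6240 promoters of absent genes and 7 over all 22862 promoters. Without olfactory receptors the absent class had a median of 8. The E-box CACGTG, a motif that Myc and Max bind, occurred in 12% of abundant, 11.2% of mid-level and 6.47% of absent promoters, and in 7.12% of all. CCGGAAG, on either strand, occurred in 25.6% of abundant and 5.34% of absent promoters, and in 9.12% of all. TATAAA occurred in 11.2% of abundant, 6.45% of mid-level and 18.7% of absent promoters, and in 14.8% of all. CACGTG and CCGGAAG themselves hold a CG, so their counts move with CG content. CACGTG reads the same on both strands, and the others were searched on both.

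The 12 promoters of detected pre-BCR and B identity genes lay at the CG-poor end. They held a median of 3 CG dinucleotides, close to the counts in the Igll1, Vpreb1 and Vpreb3 sequences above. The 12 promoters of detected myeloid genes held the same median of 3, so this was not particular to B lineage genes. The 39 promoters of detected ribosomal protein genes held a median of 22, with 29 in the Rps12 sequence. The octamer occurred in 2 of the 12 pre-BCR and B identity promoters, and in 1.82% of all promoters. CCGGAAG occurred in 43.6% of the ribosomal protein promoters. No test was made of these counts.

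The spread between arrays was small and depended on level. Over the 9958 genes the median standard deviation was 0.123 log2 units, with a 90th percentile of 0.277, and 77.2% of genes lay under 0.2. It rose from a median of 0.076 in the brightest 10% of genes to 0.216 among genes at 5.73 to 6.26, and was 0.186 in the dimmest 10%. For comparison, the beads of 1 probe on 1 array gave a median standard error of 3.60%, 3.45% and 3.44% of the intensity on replicates 1, 2 and 3. Quantile normalization gave the 3 arrays the same distribution of values, so an overall difference in RNA content would not be seen.

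**Figure D4:**
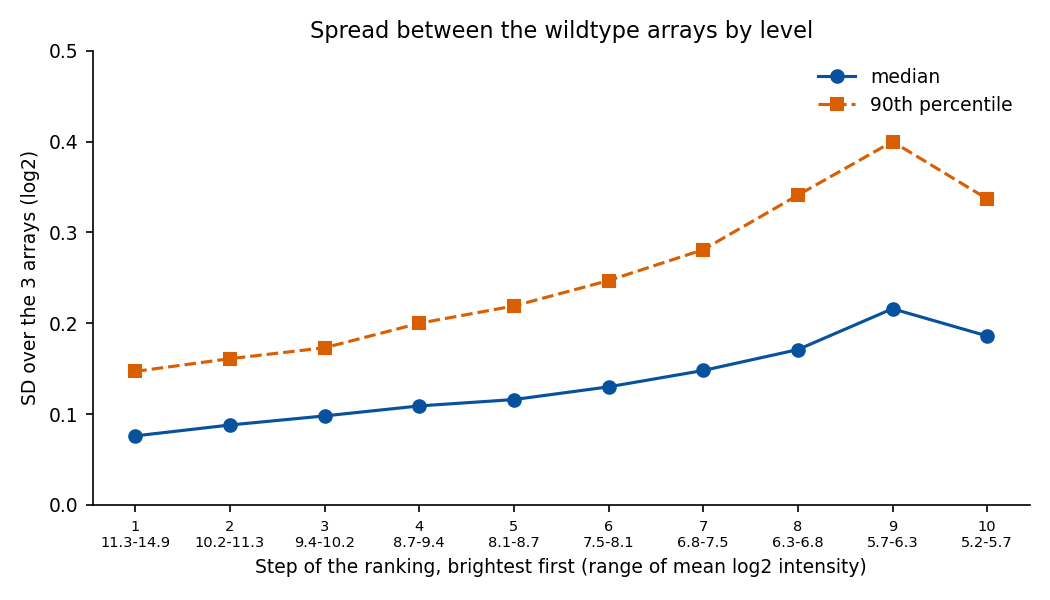
Standard deviation over the 3 wildtype arrays (vertical axis, log2 units) in 10 equal steps of the ranking from brightest to dimmest (horizontal axis, with the range of mean log2 intensity), as the median (circles) and the 90th percentile (squares). The median rises from 0.076 in the brightest step to 0.216 in the last but 1.

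Only 64 genes, or 0.643%, had a range over the 3 arrays above 1 log2 unit. Replicate 1 was the array farthest from both others for 51 of them, on the low side for 33 and on the high side for 18. Between replicates 2 and 3 alone, 6 genes differed by more than 1. Among the 64 genes 11 were members of the myeloid list, 5 were stefins and 2 were erythroid. A further 1 was a hepatocyte gene, 1 a Hox gene and 1 a mitochondrial transcript. No member of the B lineage, Myc target or cell cycle lists was among them. A share of 0.643% would place few genes in lists of that size, so this does not single them out as steady.

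The widest gene was Mpo, which encodes myeloperoxidase of neutrophil granules, at 7.63, 9.60 and 9.83 (deposited intensities of 298, 1264 and 1097). Its other 3 probes were also lowest on replicate 1, for instance at 6.41, 7.87 and 8.25. Camp and Ngp, granule proteins of neutrophils, measured 7.44, 9.07 and 9.26 and 7.10, 8.35 and 8.67. S100a8 and S100a9, the abundant calcium-binding pair of neutrophils, measured 11.35, 12.68 and 12.77 and 10.02, 11.34 and 11.45. In each of these 5 genes replicate 1 lay well below both other arrays, which were close to each other.

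Lcn2 and Lyz2, an iron-sequestering protein and lysozyme of myeloid cells, repeated the pattern at 7.35, 8.71 and 8.85 and at 7.35, 8.83 and 8.54, and so did C3, complement component 3, at 6.12, 7.58 and 7.72. Of the 23 myeloid markers on the array 14, or 60.9%, were detected, beside 32.4% of all entries. The median deviation of the 14 from the 3-array mean was -0.87 on replicate 1, 0.40 on replicate 2 and 0.44 on replicate 3. Replicate 1 was lowest for 11 of the 14, beside 36.2% of all ranked genes. Fcer1g went the other way, at 8.62, 8.02 and 7.93, and the macrophage genes Csf1r, at 5.74, 5.71 and 5.79, and Cd68, at 5.74, 5.55 and 5.09, were faint. Cd14, Itgam, Cebpa and Mmp8 were detected on no array. The stefins, cystatin-type protease inhibitors clustered on chromosome 16 that were grouped after their values were seen, deviated by -0.92, 0.49 and 0.39. Stfa1 measured 10.80, 12.17 and 12.35. The stefin genes are close copies of each other, so their probes may share signal.

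**Figure D5:**
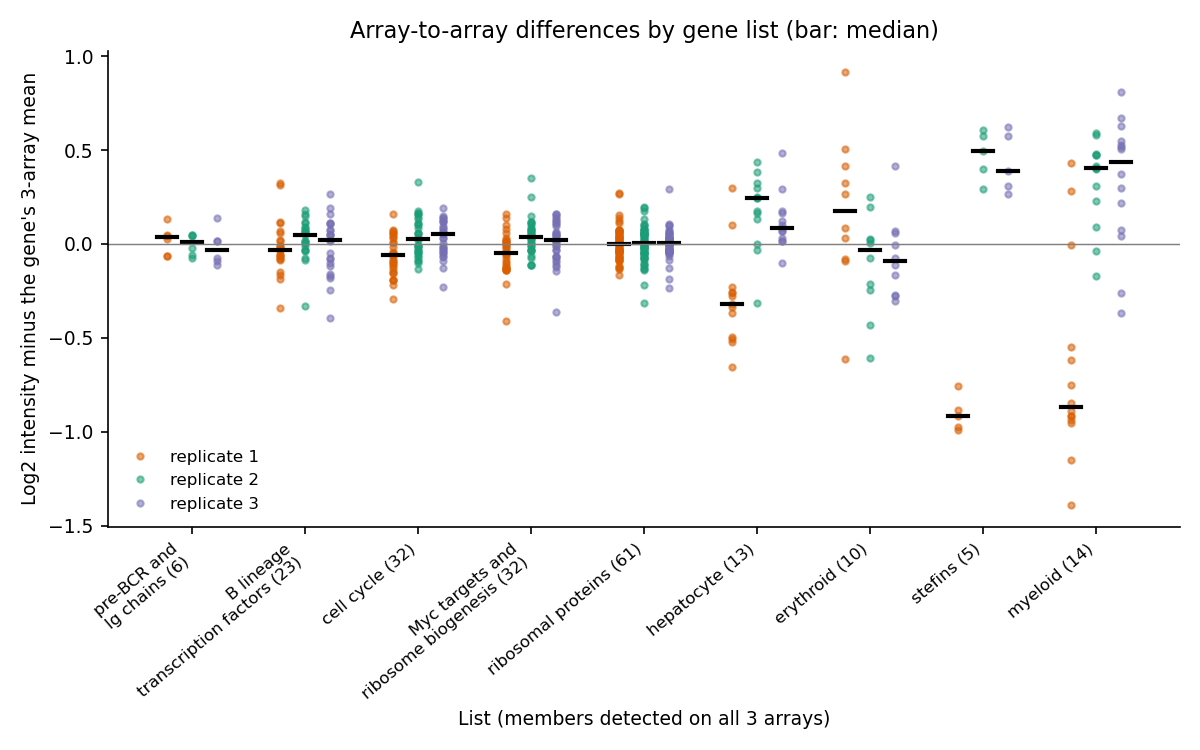
Difference of each array from the gene's mean over the 3 wildtype arrays (vertical axis, log2 units) for the members detected on all 3 arrays of 9 lists (horizontal axis, number in brackets), with coloured points for replicates and bars for medians. Replicate 1 lies at -0.87 for myeloid genes and -0.92 for stefins, and within 0.05 of the mean for the first 5 lists drawn.

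Erythroid markers were bright through globin. Hbb-b1, adult β-globin, measured 14.50, 13.84 and 13.92 and Hba-a1, α-globin, 13.84, 12.90 and 13.26, and Tfrc, the transferrin receptor that all dividing cells use, 11.10, 10.94 and 11.01. Replicate 1 was the highest for these 3 genes, and for all 10 detected probes among the 11 of Hbb-b1. Alas2, the first enzyme of haem synthesis in red cells, also was highest there, at 8.01, 6.49 and 6.79, whereas Slc4a1, the band 3 anion exchanger, measured 9.29, 9.41 and 9.45 and Car2, a carbonic anhydrase gene with a range above 1, was lowest there, at 5.75, 6.56 and 6.78. Replicate 1 was the highest for 6 and the lowest for 3 of the 10 detected members, beside 37.1% and 36.2% of all ranked genes. The erythroid regulator gene Gata1 and the embryonic globin genes Hbb-y and Hba-x were detected on no array. In all, 10 of the 21 erythroid markers, or 47.6%, were detected, beside 32.4% of all entries. The α-globin genes are near-identical copies, which 1 probe cannot tell apart.

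Hepatocyte markers were mid-level. Ttr, transthyretin, measured 8.79, 9.75 and 9.40, Ahsg, fetuin, 8.54, 9.36 and 9.21, Apoa2, an apolipoprotein, 8.51, 8.87 and 8.84, and Serpina1b, an antitrypsin, 8.26, 8.77 and 8.76. Of 22 markers 13, or 59.1%, were detected, beside 32.4% of all entries. Replicate 1 was the lowest for 11 of these 13, beside 36.2% of all ranked genes. The median deviation of the 13 was -0.32 on replicate 1 against 0.24 and 0.08 on replicates 2 and 3. Alb, Apob, Rbp4, Cps1, Fabp1 and Fgb were detected on no array. In a sample of sorted cells of this kind, RNA of a few other cells and low expression in the pre-B cells themselves cannot be told apart, nor can fewer cells of a type and less RNA per cell.

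The remaining lists of other cell types were detected to varying extents. Of 15 T cell markers 6, or 40%, were detected, near the 39% of named genes and beside 32.4% of all entries. Among them were Cd8b1, a coreceptor chain, at 10.47, 10.40 and 10.42 and the kinase gene Lck at 8.13, 7.67 and 8. Cd3e, Cd3d, Cd4 and Cd8a were detected on no array, although another CD3 chain gene, Cd3g, was mid-level at 7.48, 6.98 and 6.68. Of 8 NK cell markers 2, or 25%, were detected, Prf1 (perforin) at 8.90, 9.17 and 8.86 and Nkg7 at 7.57, 6.83 and 6.72. Of 10 stem and progenitor markers 3, or 30%, were detected, led by Meis1 at 7.08, 7.16 and 7.07. For megakaryocytes and mast cells 2 of 13 were detected, both faint, for stroma and endothelium 1 of 16, for neurons and glia 1 of 12, and for muscle and for epithelium none of 9 and none of 11. The stroma and endothelium gene was Pecam1, which leukocytes also express, and the glial gene was Mbp, whose locus has a second transcription unit used in the immune system, at 7.78, 7.97 and 7.99. The part of other cells in the differences between arrays was not tested.

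Mitochondrial genome transcripts, a group also chosen after values had been seen, were mostly abundant. Of 20 entries, several for the same gene, 13, or 65%, were abundant, beside 3.24% of all entries. The entry for cytochrome c oxidase subunit III measured 14.87, 14.76 and 14.89. MT-ND5 was among the 15 widest genes, at 9.65, 8.12 and 9.13, and the array's other entry named for ND5 measured 11.13, 11.10 and 11.34. Replicate 2 was low on the former and close to replicate 1 on the latter, and whether both entries read the same transcript was not tested.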

How the data were processed

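Total RNA of pre-B cells was read on Illumina MouseWG-6 v2 arrays, and the 3 Smchd1 wildtype arrays were used. The deposited intensities are mean bead signals per probe, exported without normalization by GenomeStudio 1.8.0, per the file headers. Beside them the authors deposited the count of beads behind each value, the detection p-value, which compares a probe with the negative controls, and in another table the share 1 minus that p-value. The authors' deposited log2 values were made with neqc (normexp background correction from control probes and quantile normalization), per the deposited description, with R 2.15.1, limma 3.12.1 and BeadStudio listed in the submitters' processing notes. No genome build is given in the sources used here.

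Levels, ranks and standard deviations were computed from the deposited log2 values in Python 3.11.15 with pandas 2.3.3. A gene entry was detected where a probe had p under 0.05 on all 3 arrays, and was represented by the brightest such probe. A gene detected on no array was shown by its brightest probe. Alternatives were computed with limma 3.58.1 in R 4.3.3. Array names were matched to RefSeq (GRCm38.p6), 15991 entries by symbol, 5825 by synonym and 8958 not at all. Promoter motifs were searched on both strands of 300 bases. The number of arrays limits the precision.

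The members, the 33 lists, the 19 families and the 4 families added later were chosen with earlier results of these data known. Named genes were the markers, the 25 highest genes, up to 5 of the highest members of each B lineage or process list and up to 4 of each list of another cell type, members not detected, the 15 widest genes and genes at class borders. Names that are clone identifiers only were counted, and a few named by this rule are not reported here. Alternatives were the detection rule, the probe rule, the normalization, the class border, merging by symbol and leaving out each array. Ranking and counting were checked on simulated data.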

Additional observations from a re-analysis of the deposited data

How the results depend on the processing

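Of 88 recomputed main values 72 stayed within the limits set and 16 moved, and of 1176 values of single lists and genes 176 moved. The main values are counts and spreads, which have no direction that could reverse. Detected genes numbered 9080 at a detection p under 0.01, 11242 on at least 2 arrays and 13718 on at least 1 array, and 10206 to 10730 without 1 array. The abundant class held 498 genes as the top 5%. The order of genes hardly depended on the normalization, with rank correlations of 0.9999 and above. Each normalization keeps the order of probes within an array, so correlations this high follow from the method and test little. Levels shifted as a whole by a median of 0.13 log2 units when only the wildtype arrays were normalized together and by 0.666 on uncorrected intensities.

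The spread depended on these choices more. Genes with a range above 1 numbered 157 with detection on at least 2 arrays, 249 with detection on at least 1 array, 25 on median-scaled uncorrected intensities and 13 on quantile-normalized uncorrected ones, and 6 to 45 without 1 array, the 6 being without replicate 1. The median standard deviation was 0.196 on median-scaled and 0.075 on quantile-normalized uncorrected intensities. The myeloid spread of medians over arrays, 1.31, was 0.89 on quantile-normalized uncorrected intensities, 0.12 without replicate 1 and up to 1.28 without another array. The hepatocyte spread, 0.56, was 0.34 on quantile-normalized uncorrected intensities and 0.18 to 0.52 without 1 array. The erythroid spread, 0.27, was 0.12 on both uncorrected scales and 0.08 to 0.31 without 1 array. Uncorrected intensities keep the background, which shrinks log2 differences of dim probes. No paired analysis was possible because no test and no comparison between groups was made.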

Other observations

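Some genes outside the lists varied between arrays and are named after their values were seen. Ccl5, a chemokine gene, measured 8.27, 7.31 and 7.12 on replicates 1, 2 and 3, Ccl4 7.45, 6.28 and 6.09, and Klrd1, which encodes an NK cell receptor chain, 7.91, 7.31 and 6.79. These were picked for their range above 1. The detected T cell markers deviated by a median of 0.11, -0.05 and -0.01 on replicates 1, 2 and 3, and the 2 detected NK cell markers by 0.23, -0.01 and -0.22. No member of either list had a range above 1. Trbv13-2, a T cell receptor segment outside the lists, did, at 8.77, 8.05 and 7.72. Whether these genes vary together was not tested. Both entries named Ifi27, an interferon-induced gene, were highest on replicate 2, at 8.31, 9.26 and 7.90 and at 8.19, 9.38 and 8.34. Erdr1 was the only gene besides Stfa1 and S100a8 that was abundant and had a range above 1, at 12.23, 11.50 and 11.06.

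Of 15 named genes on the Y chromosome 4, or 26.7%, were detected on all 3 arrays, with Ddx3y at 9.90, 9.91 and 9.77, Eif2s3y at 9.51, 9.02 and 9.09, Kdm5d at 6.40, 6.44 and 6.36 and Uty at 5.55, 5.32 and 5.38. Zfy1 and Zfy2 were detected on no array. Xist, the RNA of the inactive X chromosome of female cells, was detected on no array by any of its 4 probes. The share of named genes detected ranged over the autosomes from 33.1% on chromosome 6 to 43.9% on chromosome 5, with 39% over all chromosomes, and was 30.6% on the X chromosome. Olfactory receptors lowered it on some autosomes: without them it was 42.8% and not 36.2% on chromosome 2, and 30.9% on X.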
